A study of Rattus norvegicus with 16 samples.

Results

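The acute phase, coagulation and complement genes considered here are 45 rat genes whose products the liver secretes into plasma, together with the carriers albumin and transferrin. They were chosen by gene symbol through the RefSeq identifiers of the array probes, with the probe of highest mean signal standing for a gene. Itih2, F5, F11 and C5 had no probe in the naming table. The other 41 genes had a probe, and all 41 passed the filter on dim probes. In the whole series, 12072 of 26913 genes or identifiers passed that filter. A1bg, of unsettled function in plasma, passed through M alone and was well above background on 3 M and 1 MM arrays, and on 0 C and 0 CC arrays. Hamp was well above background on 4 M, 3 C, 3 MM and 2 CC arrays and Lcn2 on 3 of the 4 MM arrays, while every other member was so in all the groups.

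The pups were Sprague-Dawley rats, all male, and their livers were taken at postnatal day 21. RNA was hybridised to 16 dual-colour Agilent arrays, 4 to each of 4 groups, with the RNA of 2 pups pooled on each array. M pups stayed with their own dams, which had been given methylmercury together with polychlorinated biphenyls and organochlorine pesticides (the mixture) in corn oil at 1 mg per kg per day during gestation and lactation. C pups stayed with their own dams, which had been given corn oil. MM pups were born to mixture dams and nursed from birth by other mixture dams, and CC pups were born to corn oil dams and nursed from birth by other corn oil dams. The mixture and its vehicle were given to the dams, not to the pups. The litters behind a pool are not in the labels, so 2 pools may share a litter, and p-values measure the spread between pools. Cy5 carried the pup RNA and Cy3 a reference RNA made from 14 rat cell lines, on every array with the same dyes. A log2 ratio is Cy5 over Cy3 for 1 probe, and it is a level only relative to that probe's reference signal, so levels of different genes were not compared.

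The acute phase response is the change in liver secretion that follows infection or injury. Interleukin 6, acting through STAT3, and interleukin 1, acting through NF-kB and C/EBP factors, raise the messenger RNA of positive acute phase proteins in hepatocytes, while that of negative ones, such as albumin, falls. The same cells make most clotting factors, their inhibitors and the circulating complement components. In rats alpha-2-macroglobulin is the classic strong responder, and it is also made by fetal and neonatal liver.

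Slide 1 held the arrays of C and CC, and slide 2 those of M and MM, so slide and mixture cannot be told apart. The signal of the reference RNA, which comes from no pup, was called different between the slides for 66.1% of genes in the M and C comparison and for 66.4% in the MM and CC comparison. For called members, and for others named whose Cy5 difference had the opposite sign in M against C, the Cy5 difference is therefore given beside the ratio. Each slide held 2 arrays of each of its groups in row 1 and 2 in row 2. Over all genes, each array's weakest correlation within its group was 0.967 to 0.985. Summed Cy5 signal of 6 hepatocyte markers ran from 475000 to 538000 in M, 478000 to 622000 in C, 422000 to 551000 in MM and 551000 to 613000 in CC. All such sums are of background-corrected signal without normalization between arrays, so they also vary with the brightness of an array. Skeletal muscle markers summed to 12200 on CC 1 and 10400 on CC 2, against 184 to 401 on the other 14 arrays, and pancreas markers to 3820 on CC 1, 10800 on CC 2, 2140 on MM 1 and 1280 on M 6, against 108 to 305 on the other 12 arrays. Their part in the results below was not tested. In whole liver, fewer cells of a type and less RNA per cell cannot be told apart.

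The array CC 1 stood apart for these genes. Its ratio was the lowest of the CC group for 35 of 41 members (85.4%), against 31.8% of all genes. The Cy5 signal of the members on CC 1 lay at a median of -0.10 from the CC mean on the log2 scale, CC 1 included in that mean. Their Cy3 signal lay at a median of 0.51 from it. For albumin, the main plasma carrier, log2 Cy3 was 11.63 on CC 1, against 9.96 to 10.50 on the other 15 arrays. Among 367 other genes with a log2 ratio above 4 in C, 76.6% were also lowest on CC 1. The array was kept in the fits, and for named members the values without it are also given where they turned sign, changed a call or moved most. That alternative was chosen after seeing the data for M against C, for MM against M and for Cy5 alone.

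**Figure D1:**
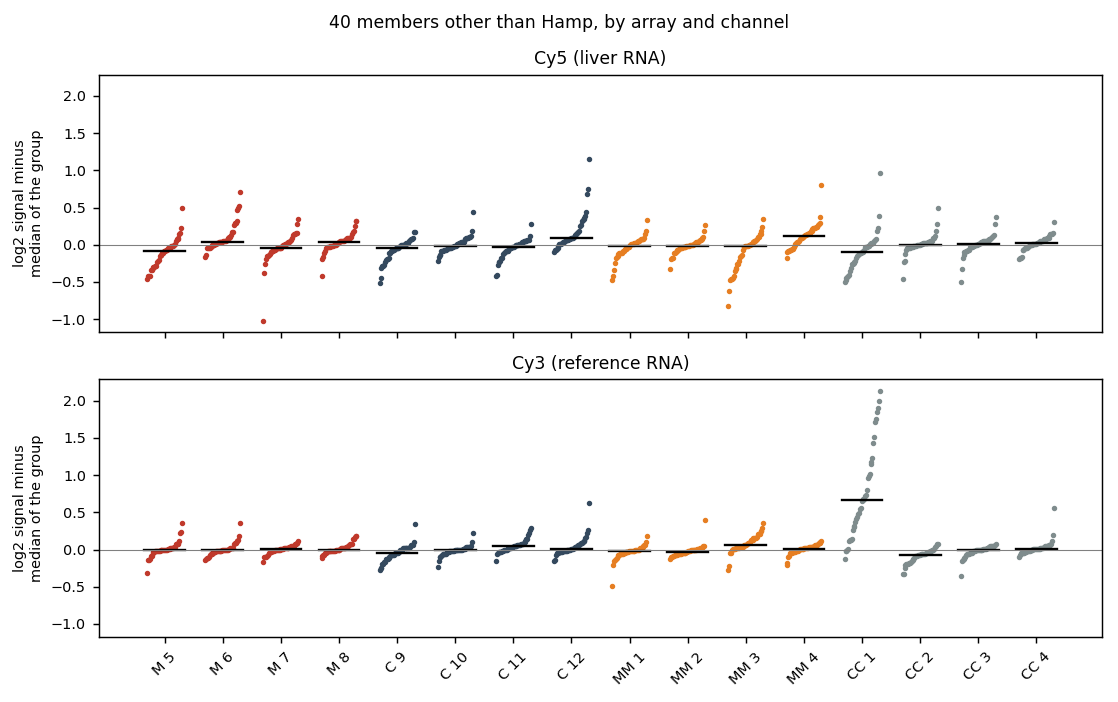
Log2 Cy5 signal (top, pup liver RNA) and log2 Cy3 signal (bottom, reference RNA) of 40 members other than Hamp on each of the 16 arrays, minus the median of the array's group. Each point is 1 gene, points run from low to high within an array, and the bar is the array's median. The reference signal of CC 1 reaches above 2 where the other 15 arrays stay below 0.7.

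The spread of the members between pools of a group was wide, in part through CC 1. Their median standard deviation within a group was 0.30 on the log2 ratio scale, against 0.15 over all 12072 genes, and without CC 1 it was 0.20, against 0.14. Their median log2 ratio in C was 5.98, against 0.14 over all genes. Their spread was not set against that of other genes with high ratios. Hepcidin (Hamp), the hormone that closes iron export, had the largest spread at 1.7. Its log2 ratio was 4.71 on MM 2 and 2.30 on C 12, and it lay between -1.22 and 0.81 on the other 14 arrays. The siderophore-binding Lcn2 and the fibrinogen chain Fgb followed, each at 0.58. Without CC 1, Lcn2 was at 0.51 and Fgb at 0.20, and the smallest spreads were those of F2 at 0.062, Plg at 0.069 and Serpind1 at 0.073. With all 16 arrays they were those of Cfi, the protease that cleaves C3b, at 0.17, heparin cofactor II (Serpind1) at 0.18, and the protease inhibitor Serpina3n at 0.19.

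Several pools were high for many members together in Cy5 alone, a pattern noticed in these data and given as a description. Array C 12 was the highest of its group for 25 of 41 members (61%), against 22.7% of all genes and 26.2% of the 367 other genes with a high liver to reference ratio. Array MM 4 was the highest for 24 of 41 (58.5%), against 16.3% of all genes and 30.5% of those 367. CC 4 was the highest for 15 of 41 (36.6%), against 25.4% of all genes and 25.9% of those 367. M 6 and M 8 were each the highest for 13 of 41 (31.7%), against 19.6% and 19.2% of all genes and 18.3% and 28.1% of those 367. In the ratio M 6 was the highest for 46.3% of members, against 21.8% of all genes, and M 8 for 12.2%, against 20.7%. CC 4 had the highest ratio for 9.76% of members, against 19.7% of all genes. On C 12 the highest value of the group was found for 9 of 13 acute phase proteins and 7 of 9 complement genes.

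The 3 fibrinogen chains, which assemble into the clotting protein that thrombin cuts, moved together over these pools. Fga had log2 Cy5 values of 14.63, 15.36, 15.07 and 15.02 on M 5 to M 8, of 14.79, 15.15, 14.97 and 15.39 on C 9 to C 12, of 14.84, 14.91, 14.61 and 15.25 on MM 1 to MM 4, and of 14.87, 15.05, 15.07 and 14.94 on CC 1 to CC 4. The M 6, C 12 and MM 4 pools were thus the high ones, and no CC pool reached them. Fgb was at 17.61 on M 6, 17.65 on C 12 and 17.31 on MM 4, and Fgg at 15.55, 15.38 and 15.27 on the same pools, each the highest of its group. Orm1, the alpha-1-acid glycoprotein that binds basic drugs, was also highest of its group on these pools, with 12.68 on M 6, 12.82 on C 12 and 12.39 on MM 4, and its other 13 values ran from 11.31 to 12.31. So did C9, a pore-forming complement component, with 13.78 on M 6, 13.92 on C 12 and 13.48 on MM 4, against 12.80 to 13.37 elsewhere. In the ratio the same 3 pools were also the highest of their groups for all 3 fibrinogen chains. In the reference channel, log2 Cy3 of Fga was 8.64 on M 6 and 8.45 on C 12, and that of Fgg 9.49 and 9.36, each again the highest of its group. The same held for Orm1, at 7.76 on M 6 and 7.46 on C 12, and for C9, at 7.36 and 7.20, but not for Fgb, and MM 4 was the highest in Cy3 for none of these 5 genes. The part of the reference signal in these Cy5 peaks was not tested. M 6, C 12 and MM 4 lay on both slides and in 3 groups, so they added to the spread within groups.

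The promoters of Fga, Fgb and Orm1 are shown because these genes were high on the same pools. Fgg and C9 were high there too and are not shown. The 3 promoters were picked after the values were seen, among windows that end where the RefSeq gene table starts the gene. Each is the 250 bases before the gene's start in RefSeq (assembly GRCr8), 5′ to 3′ on the gene's strand, with capitals marking motif matches.
Fga, chr2:170671919-170672168, plus strand: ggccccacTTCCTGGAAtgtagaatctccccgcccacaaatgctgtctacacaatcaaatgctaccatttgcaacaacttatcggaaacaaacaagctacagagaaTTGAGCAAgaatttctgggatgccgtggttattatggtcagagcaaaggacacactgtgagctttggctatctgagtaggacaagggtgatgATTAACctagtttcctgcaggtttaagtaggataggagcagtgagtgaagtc
Fgb, chr2:170700876-170701125, minus strand: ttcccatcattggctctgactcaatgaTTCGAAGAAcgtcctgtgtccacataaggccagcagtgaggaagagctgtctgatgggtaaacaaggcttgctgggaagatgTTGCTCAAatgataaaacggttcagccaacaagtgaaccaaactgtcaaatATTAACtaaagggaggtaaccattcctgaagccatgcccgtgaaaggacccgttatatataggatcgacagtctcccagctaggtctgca
Orm1, chr5:81788259-81788508, plus strand: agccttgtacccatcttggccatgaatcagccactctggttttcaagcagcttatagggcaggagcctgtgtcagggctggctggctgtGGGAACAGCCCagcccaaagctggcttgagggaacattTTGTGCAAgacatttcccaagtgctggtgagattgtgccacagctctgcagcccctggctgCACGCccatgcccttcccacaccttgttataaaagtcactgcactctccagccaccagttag
The motifs searched on both strands were STAT (TTCNNNGAA), C/EBP (TTNNGCAA), NF-kB (GGG and CC with 5 unspecified bases between them), HNF1 (GTTAAT) and the core of the aryl hydrocarbon receptor element (GCGTG). Fga and Fgb each held 3 matches in the same order, STAT at 242 and 223 bases before the start, C/EBP at 144 and 141, and HNF1 at 52 and 90. Orm1 held an overlapping NF-kB pair at 161 and 160, C/EBP at 123 and the GCGTG core at 62. Of all 27457 windows of that length in the RefSeq promoter table, 19036 ended where the RefSeq gene table starts the gene, as the 3 shown did. Of the 27457, 7.52% held the STAT motif, 9.2% C/EBP, 43.5% NF-kB, 6.46% HNF1 and 27.2% GCGTG. A window was found for 37 of the 45 members, 25 of them ending at that start, and of the 37, 7 held STAT, 15 C/EBP, 14 NF-kB, 8 HNF1 and 3 GCGTG. These matches are letters in a window and do not show binding. The promoters of A2m and Saa4 were not analysed here.

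**Figure D2:**
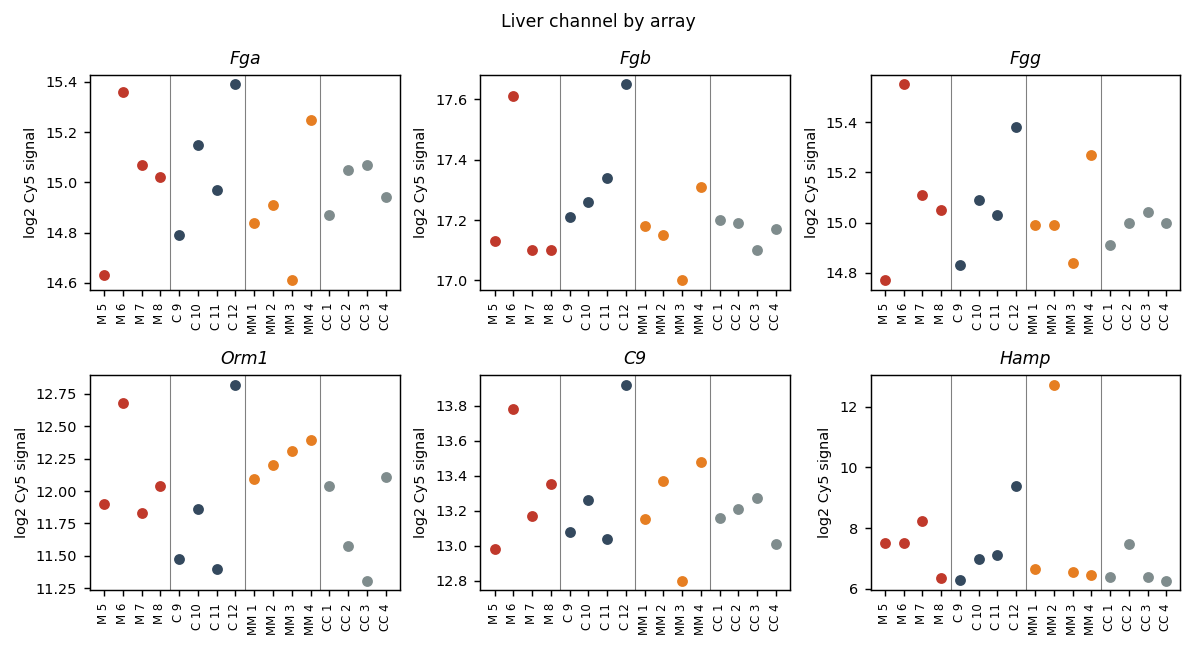
Log2 Cy5 signal (vertical axis) of Fga, Fgb, Fgg, Orm1, C9 and Hamp on each of the 16 arrays (horizontal axis, grouped as M, C, MM and CC). Each point is 1 pool. The 3 fibrinogen chains peak on M 6, C 12 and MM 4, and Hamp reaches 12.73 on MM 2.

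**Figure D3:**
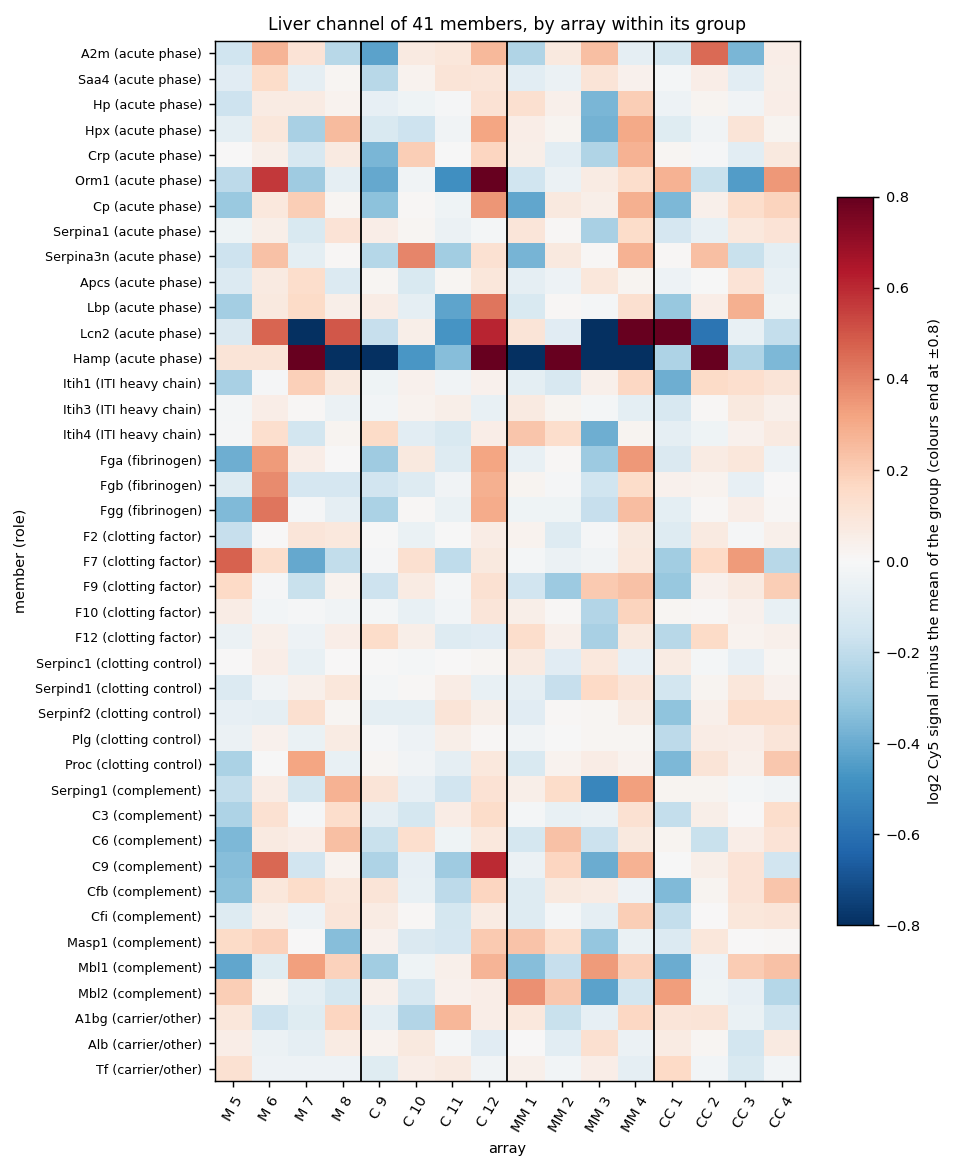
Log2 Cy5 signal of all 41 members (vertical axis, with their roles) on the 16 arrays (horizontal axis), as the difference from the mean of the array's own group. Red is higher and blue lower, and colours end at 0.8 in either direction. C 12 and MM 4 are red for many rows, and M 5 is blue for the fibrinogen chains and most complement genes.

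The comparison of M with C asked how the mixture affected pups kept with their own dams. Alpha-2-macroglobulin (A2m) was the only member called, lower in M, as 1 of 41 (2.44%). A call means an adjusted p below 0.05 in limma over all 12072 genes, and 20.5% of those genes were called, 8.19% higher and 12.3% lower. Of the members, 9 had a positive and 32 a negative difference, with a median of -0.17 against -0.05 over all genes. In Cy5 alone 2 members were called, both lower, against 2.27% of genes called, 1.66% higher and 0.613% lower, and the members' median was -0.05.

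A2m, a broad trap for proteases in plasma, had log2 ratios of 2.56, 3.13, 2.91 and 2.65 on the M arrays, against 3.19, 3.77, 3.76 and 3.94 on the C arrays. The groups did not overlap. The means were 2.81 ± 0.26 in M and 3.67 ± 0.33 in C (SD, n = 4 each), a log2 difference of -0.85 ± 0.19 (SE), or 1.81-fold lower (limma adjusted p = 0.00476, 95% confidence interval -1.25 to -0.45). In Cy5 alone the difference was -0.79 (adjusted p = 0.0266), and in Cy3 it was 0.05. Another A2m probe gave -0.92 (adjusted p = 0.00462). Within array row 1 the difference was -0.63, not called from those arrays alone (adjusted p = 0.19), and within row 2 it was -1.08.

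Saa4, a constitutive serum amyloid A of high density lipoprotein, was the only other member called in Cy5 alone. Its log2 ratios were 8.03, 8.06, 7.96 and 7.87 in M, against 8.54, 8.54, 8.36 and 8.41 in C, and the groups did not overlap. The difference of -0.48 ± 0.27 did not pass in the ratio (limma adjusted p = 0.226), and it did without CC 1 (adjusted p = 0.000225). In Cy5 alone the values were 16.23, 16.47, 16.25 and 16.34 in M, against 16.42, 16.67, 16.75 and 16.74 in C, with an overlap of 1 array in each group. That difference was -0.32 (adjusted p = 0.0481). Another Saa4 probe gave -0.64 in the ratio (adjusted p = 0.00676).

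No other acute phase protein was called in M against C. The pentraxin Crp, which binds phosphocholine and is constitutively high in rat plasma, had log2 ratios of 3.41, 3.86, 3.58 and 3.72 in M, against 2.91, 3.54, 3.09 and 3.54 in C. The groups overlapped, and the difference was 0.37 ± 0.20 (adjusted p = 0.198), with 0.34 in Cy5. Log ratios written by the scanner software gave -0.48 (adjusted p = 0.0858). Haptoglobin (Hp), which binds free hemoglobin, had 7.47, 7.86, 7.72 and 7.71 in M, against 8.10, 8.17, 7.76 and 8.34 in C. Its difference was -0.40 in the ratio, with 0.04 in Cy5 and 0.28 in Cy3. Orm1 differed by -0.19 in the ratio, 0.22 in Cy5 and 0.52 in Cy3. For both genes the sign of the ratio was not that of the liver channel.

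The fibrinogen chains had differences of -0.22 (Fga), -0.22 (Fgb) and -0.16 (Fgg) in the ratio, none called, and Fgg was at 0.04 in Cy5. The 3 measured heavy chains of the inter-alpha-trypsin inhibitors, which coat hyaluronan, lay between -0.32 and -0.22. The 5 measured clotting factors had ratio differences between -0.34 (F12, the contact factor) and -0.06 (F9), and none was called. In Cy5 alone F2 was at 0.04 and F10 at 0.08, and 7126 of all 12072 genes had a negative ratio difference. Among the inhibitors and proteases that limit clotting, plasminogen (Plg), the source of the clot-dissolving plasmin, had 6.24, 6.28, 6.27 and 6.25 in M, against 6.71, 6.63, 6.55 and 6.56 in C. The Plg groups did not overlap, with a difference of -0.35 ± 0.14 that did not pass (adjusted p = 0.0916), -0.04 in Cy5 and 0.25 in Cy3. Serpind1 was at 0.18, not called.

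Of 9 complement genes, 8 had a negative difference and none was called in M against C. Cfb, the catalytic subunit of the alternative pathway convertase, had 7.59, 7.90, 8.0 and 7.93 in M, against 8.55, 8.42, 8.20 and 8.53 in C. Its groups did not overlap, and the difference was -0.57 ± 0.27 (adjusted p = 0.149), with -0.25 in Cy5 and 0.21 in Cy3. C3, the component on which all activation pathways meet, was at -0.11. Mannose-binding lectin 2 (Mbl2) was at 0.32, with 5.83 to 6.03 in M and 5.56 to 5.77 in C. The negative acute phase proteins albumin (Alb) and transferrin (Tf) were at -0.29 and -0.24.

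In the ratio, M and C arrays did not overlap for 10 of 41 members, and for 25.1% of all genes. Without CC 1 the differences of M from C stayed as they were, since no M or C array was left out, while the estimated spread fell. Then 8 members were called, all lower in M: A2m, Saa4, Hp, Alb, Cfb, Plg, F12 and Itih1. Of all genes 22.6% were called without CC 1, 8.82% as higher and 13.8% as lower in M. Of those 8, only A2m and Saa4 were called in Cy5 alone without CC 1, where 2.97% of genes were called. The remaining 6 had Cy5 differences between -0.25 (Cfb) and 0.04 (Hp), and Cy3 differences between 0.15 (Alb) and 0.28 (Hp).

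**Figure D4:**
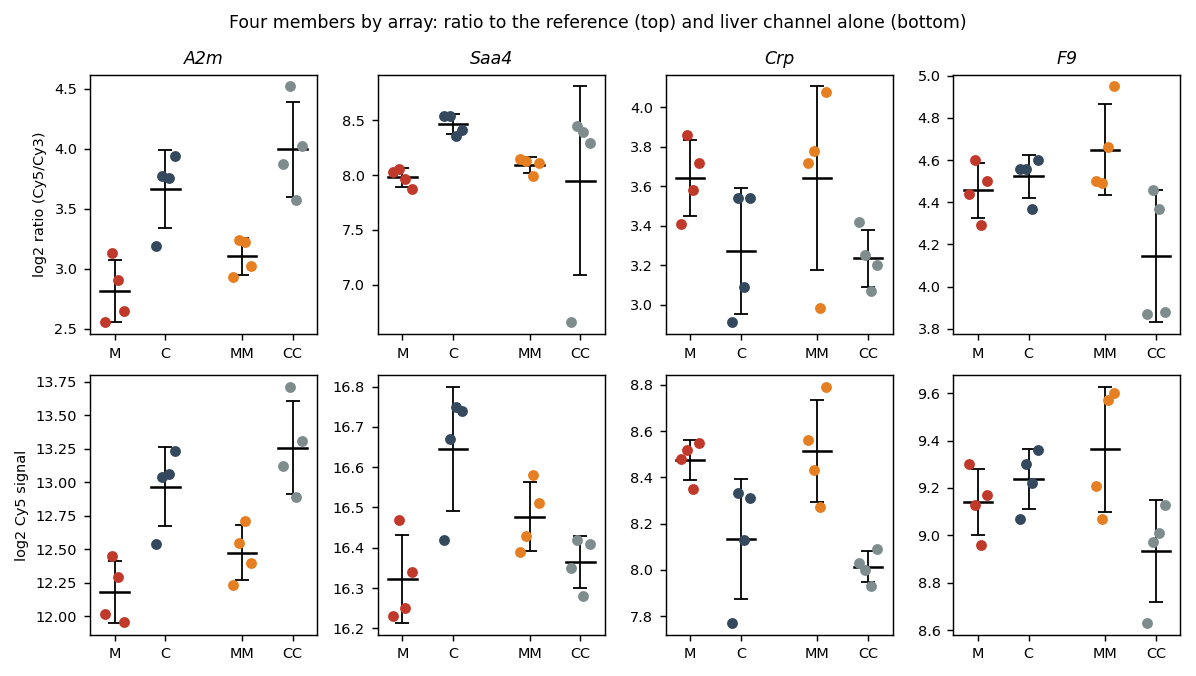
Log2 ratio (top) and log2 Cy5 signal (bottom) of A2m, Saa4, Crp and F9 in M, C, MM and CC. Each point is 1 array, and bars show the mean ± SD of 4 arrays. The M and MM arrays of A2m lie below all C and CC arrays in the Cy5 row except C 9, at 12.54.

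The comparison of MM with CC asked the same of cross-fostered pups. A2m was called lower and the clotting factor gene F9 higher, which made 2 of 41 members (4.88%), against 20.1% of all genes called, 12.3% lower and 7.83% higher. Of the members, 28 had a positive and 13 a negative difference, with a median of 0.12 against -0.06 over all genes. In Cy5 alone 1 member was called higher and 1 lower, against 2.63% of genes called, 2.19% higher and 0.447% lower, and the members' median was 0.03.

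A2m had log2 ratios of 2.93, 3.24, 3.22 and 3.02 on the MM arrays, against 3.87, 4.52, 3.57 and 4.02 on the CC arrays. No value overlapped, and CC 1 was not the lowest of its group for this gene. In the ratio, MM and CC arrays did not overlap for 3 of 41 members, and for 22% of all genes. The means were 3.10 ± 0.15 in MM and 3.99 ± 0.40 in CC (SD, n = 4 each), a log2 difference of -0.89 ± 0.19, or 1.85-fold lower (limma adjusted p = 0.00381). In Cy5 alone it was -0.78 (adjusted p = 0.0233), in Cy3 0.05, and another probe gave -0.74 (adjusted p = 0.0163). Within row 1 the difference was -1.11, not called from those arrays alone (adjusted p = 0.0662), and within row 2 it was -0.68. Without CC 1 it was -0.93 (adjusted p = 0.00633).

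F9, the vitamin K-dependent factor lacking in hemophilia B, had 4.50, 4.49, 4.66 and 4.95 in MM, against 3.87, 4.46, 4.37 and 3.88 in CC. In the ratio the groups did not overlap, by a gap between 4.46 and 4.49. The difference was 0.50 ± 0.14, or 1.42-fold higher (limma adjusted p = 0.0163), with -0.17 in Cy3. In Cy5 the groups overlapped, as MM 2 at 9.07 lay below CC 4 at 9.13. Log2 Cy3 of F9 was 6.73 on CC 4, against 6.03 to 6.31 on the other CC arrays. The call was lost in Cy5 alone, at 0.43 (adjusted p = 0.0971), without CC 4, at 0.41 (adjusted p = 0.0532), and without MM 4, at 0.40 (adjusted p = 0.0593). In M against C, F9 differed by -0.06.

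Crp was called higher in Cy5 alone but not in the ratio. Its log2 Cy5 values were 8.56, 8.43, 8.27 and 8.79 in MM, against 8.03, 8.0, 7.93 and 8.09 in CC, with no overlap and a difference of 0.50 (limma adjusted p = 0.0324). Without CC 1 that difference was also 0.50 and was not called (adjusted p = 0.0676). In the ratio the values were 3.72, 3.78, 2.98 and 4.08 in MM, against 3.42, 3.25, 3.07 and 3.20 in CC. MM 3 was the lowest of all 8, and the difference of 0.40 (adjusted p = 0.158) became 0.62 without it (adjusted p = 0.0122). Lcn2 lay at -0.91 ± 0.36 in the ratio and was not called (adjusted p = 0.0833), and at -0.60 without CC 1 (adjusted p = 0.236).

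The other members were not called in MM against CC. Hp was at 0.14, Orm1 at 0.02, Fgb at 0.40, C3 at 0.28, Alb at 0.22 and Tf at 0.34 in the ratio. The positive values of Hp, Fgb, C3, Alb and Tf rested on CC 1, whose ratios were 5.94 for Hp, 5.90 for Fgb, 5.32 for C3, 7.14 for Alb and 4.10 for Tf. Without it Orm1 was at -0.09, Fgb at -0.14, C3 at -0.07, Alb at -0.22 and Tf at -0.12, none called. Without CC 1, 32 of 41 differences were negative, with a median of -0.14, and 7 members were called against 18.4% of genes, 7.59% higher and 10.9% lower. Of these, A2m, Hp, Saa4, Cfb, Plg and Itih1 were lower in MM in the ratio, at -0.93, -0.41, -0.28, -0.49, -0.27 and -0.31. F9 was higher at 0.41. With CC 1 kept, Cy5 differences of Hp, Saa4, Cfb, Plg and Itih1 were -0.08, 0.11, 0.01, 0.15 and 0.08. None of these Cy5 differences was called. Another Saa4 probe, also with CC 1 kept, gave 0.09 in the ratio and 0.11 in Cy5. In Cy5 alone without CC 1 the only called member was A2m, with 1.91% of genes called. A2m was thus the member called lower in both mixture comparisons, in the ratio and in Cy5 alone. Of all genes, 0.306% were so called lower in M against C, and 0.182% in MM compared with CC.

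**Figure D5:**
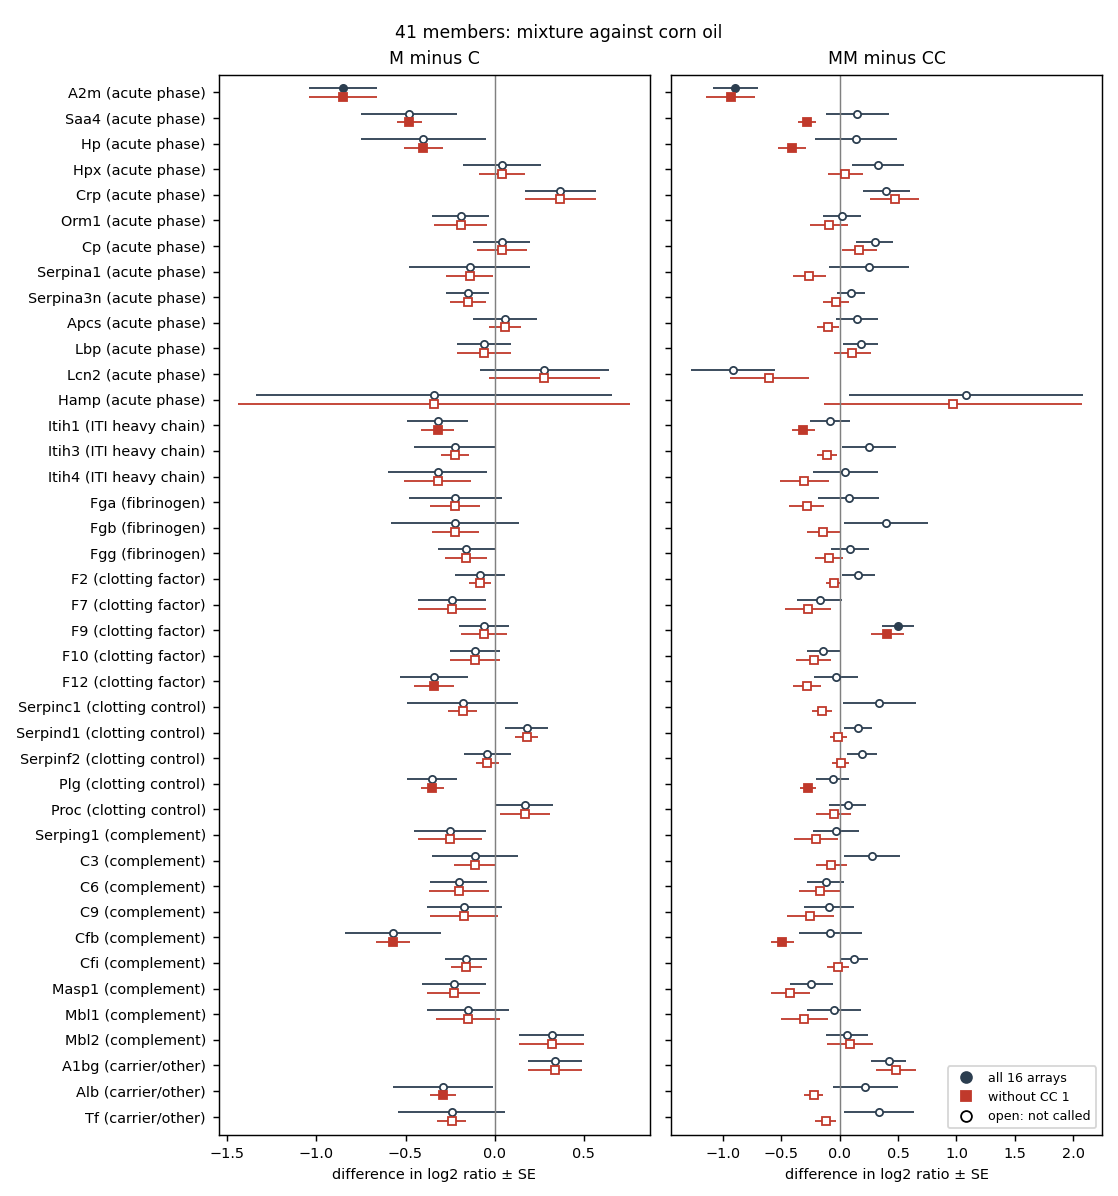
Difference in log2 ratio (horizontal axis, ± SE) of the 41 members (vertical axis, with their roles) between M and C (left) and between MM and CC (right). Dark circles are fits on all 16 arrays and red squares fits without CC 1, and filled symbols were called. A2m is filled in all 4 fits, and most squares of the right panel lie left of their circles.

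Cross-fostering was compared within each slide. In CC against C, 0 of 41 members and 0% of genes were called by limma, in the ratio and in Cy5 alone. At an unadjusted p below 0.05 there were 1 member and 337 genes (2.79%). The smallest unadjusted p among members was that of F9, at -0.38 ± 0.14 (limma adjusted p = 1), with 3.87, 4.46, 4.37 and 3.88 in CC, against 4.56, 4.56, 4.37 and 4.60 in C. It was followed by Lbp, which hands bacterial lipopolysaccharide to its receptor, at -0.31 and by Saa4 at -0.52. Without CC 1, F9 was at -0.29, Lbp at -0.24 and Saa4 at -0.09. A2m was at 0.33, Crp at -0.04 and Orm1 at -0.12. Hp at -0.51, Fgb at -0.63, C3 at -0.33, Alb at -0.42 and Tf at -0.48 became 0.04, -0.08, 0.02, 0.02 and -0.02 without CC 1. The members' median was -0.21 with CC 1 and 0 without it, and still 0 members were called. The 95% confidence interval lay within 2-fold of no difference for 32 of 41 members.

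In MM against M, 0 of 41 members and 0% of genes were called by limma, in the ratio and in Cy5 alone, with 1 member and 275 genes (2.28%) at an unadjusted p below 0.05. That member was Lcn2, at -1.18 ± 0.36 (limma adjusted p = 1). Its log2 ratios were -1.55, -1.74, -2.30 and -0.94 in MM, against -0.52, -0.01, -1.30 and 0.03 in M, so the groups overlapped by 1 array each. In Cy5 alone the difference was -1.30. A2m at 0.29 and F9 at 0.19 had the next smallest p. Crp, Hp, Orm1, Fgb, C3, Alb and Tf lay between -0.01 (Fgb) and 0.09 (Alb and Tf). The interval lay within 2-fold for 39 of 41 members. MM shares its arrays with the comparison of MM with CC, and C and M are shared likewise, so these values are not independent.

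The interaction, the mixture difference in cross-fostered pups minus that in own-dam pups, had 0 called members and 0% of genes called by limma, in the ratio and in Cy5 alone. At an unadjusted p below 0.05 there were 2 members and 348 genes (2.88%). The smallest were those of F9 at 0.57 ± 0.19, Lcn2 at -1.19 ± 0.51 and Cfi at 0.29 ± 0.16, all with a limma adjusted p of 1. Without CC 1 they were at 0.48, -0.88 and 0.16. A2m was at -0.04, Crp at 0.04 and Orm1 at 0.20. Hp at 0.54, Fgb at 0.62, C3 at 0.39, Alb at 0.52 and Tf at 0.58 became -0.01, 0.08, 0.04, 0.08 and 0.11 without CC 1. The interval lay within 2-fold for 27 of 41 members.

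Other genes of the same pathways were counted from fixed lists. Of 19 genes of acute phase signalling, 17 were tested, and in M against C 3 were called higher and 3 lower. Over all genes tested 20.5% were called in that comparison, 8.19% higher and 12.3% lower, and 20.1% in MM against CC. Irf1, an interferon-induced transcription factor, was the only one of these also called in Cy5 alone, at -0.56 in the ratio (limma adjusted p = 0.00544) and -0.62 in Cy5 (adjusted p = 0.0178). The kinase genes Jak1 and Jak2 and the NF-kB subunit Rela were higher in the ratio, at 0.46, 0.33 and 0.57. Their Cy5 differences were -0.12, 0.00 and 0.16, and their Cy3 differences were -0.66, -0.50 and -0.43. In MM against CC 4 were called higher and 1 lower, none of them in Cy5 alone.

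Of 19 other coagulation genes 13 were tested, and Vkorc1, the vitamin K reductase that warfarin blocks, was the only gene called. Its differences were -0.35 in M and -0.34 in MM in the ratio, both called lower, with Cy5 differences of -0.03 and 0.01. Of 22 other complement genes 17 were tested, and 1 was called in M and 3 in MM. C1s, a protease of the classical pathway, was higher in both, at 0.46 and 0.50, with 0.13 and 0.16 in Cy5. C1qc, a chain of the recognition molecule of the same pathway, was at -0.35 in MM and the clusterin gene Clu at 0.35. C1q chains are made mainly by macrophages. In MM against CC all 7 Kupffer cell markers had negative ratio differences (median -0.32, 1 called). So did the 4 tested leukocyte (median -0.44, 2 called), 5 stellate cell (median -0.26, 0 called) and 3 tested endothelial markers (median -0.08, 0 called). In Cy5 alone 0 of these were called, and 7350 of all 12072 genes had a negative ratio difference. In Cy3 alone 1 Kupffer cell, 3 leukocyte and 4 stellate cell markers were called, against 66.4% of all genes. In M against C, 5 of 7 Kupffer cell, 4 of 4 leukocyte and 1 of 5 stellate cell markers were negative in the ratio (medians -0.09, -0.40 and 0.02). Summed Cy5 signal of the Kupffer cell markers was 3820 to 8060 in MM and 6050 to 8340 in CC, and that of the leukocyte markers 840 to 1300 in MM and 1200 to 2590 in CC. These sums were not normalized between arrays, and the 3820 was that of MM 3, the array of lowest median Cy5 (87). The 2590 was that of CC 1, against 1200 to 1310 on the other CC arrays. The leukocyte marker Cd3e was not above background on any array of either group. The part of these cells in the C1qc difference was not tested.

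Of 18 other plasma protein genes 15 were tested, with 2 called in M and 1 in MM. The vitamin D carrier Gc was lower in M at -0.60, with 0.13 in Cy5 and 0.77 in Cy3. The apolipoprotein Apoa2 was higher in MM at 0.56 (limma adjusted p = 0.0115). Its Cy5 signal was higher by 1.89 in MM and 1.79 in M, and its Cy3 signal by 1.25 and 1.49. Alpha-fetoprotein (Afp), the fetal counterpart of albumin, was at -0.81 in MM in the ratio and not called (adjusted p = 0.06), and was called lower in Cy5 alone at -0.95 (adjusted p = 0.0254). No gene of the 4 lists was called in CC against C, MM against M or the interaction.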

How the data were processed

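Scanner files of 16 arrays were used. Per the file headers, the authors' scanner software was Feature Extraction 11.0.1.1 from Agilent. The deposited files give median spot and background intensity in both channels and a log10 ratio. The deposited series table holds log2 ratios whose normalization is not stated (medians -0.049 to -0.037). Its direction followed from correlations of 0.996 to 0.998 with the ratios computed here, which do not give its scale. As to scale, F9 in MM against CC differed by 0.48 in that table and by 0.50 in the ratios computed here.

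Median signals were used, as the files hold no means, although the plan had assumed means. The background correction was normexp (offset 50). Ratios were normalized by loess within arrays, with control and outlier spots at weight 0, and outlier spots were left out. Spots of a probe were averaged. Probes well above background in Cy5 on at least 3 of 4 arrays of a group were kept (13262 of 30367). Names came from RefSeq accessions in the table of assembly GRCr8 (18005 probes named, 12362 not). Each array had 62976 spots, 4259 of them control spots, and 0 were saturated. Median Cy5 was 87 to 102 over a background of 67 to 73. The number of arrays limits the precision.

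With limma 3.58.1 (R 4.3.3), group means were fitted over the 16 arrays (12 residual and 3.95 prior degrees of freedom), with two-sided tests and Benjamini-Hochberg adjustment over 12072 genes. For Cy5 or Cy3 alone, the background-corrected log2 signals of that channel were quantile-normalized over the 16 arrays, so their differences need not add up to that of the ratio. Files were read with jsonlite 2.0.0 and version 1.17.8 of data.table. Data were simulated with independent normal noise for each gene and 100 genes changed at each size. In M against C 93% of 2-fold and 89% of 1.5-fold changes were recovered, and 92% and 82% in MM against CC. The simulation held no slide difference and no shift shared by many genes of an array, as seen on CC 1. Its rates may therefore not hold on the real arrays. These rates are over all genes, and recovery was not simulated for the members alone, whose spread within groups was wider (median 0.30, against 0.15). The labels do not say whether CC and MM arrays of equal number are pairs. Correlations of their deviations were 0.34, 0.06, 0.18 and 0.10, and those of unequal numbers ran from -0.34 to 0.28. With so few arrays these values cannot settle it, and the fits did not pair the arrays unless stated.

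The members and lists were chosen with earlier results of these data known. Named were all called members of each comparison, A2m, Crp, Hp, Orm1, Fgb, C3, Alb and Tf throughout, and, where none was called, the 3 members of smallest p. Plg, Cfb, Mbl2, Serpind1, F2, F10, Lcn2 in MM against CC and the values of the 6 genes called without CC 1 were added after their values were seen. Alternatives changed the background correction, normalization, filter, probe choice, channel, array row, groups fitted and single arrays.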

Additional observations from a re-analysis of the deposited data

Results flagged for a closer look

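Of 164 groups of 4 arrays (41 members in 4 groups), 32 held an array whose log2 ratio lay far from the other 3 by Dixon's criterion (its gap to the nearest of them as a share of the range). Chance alone flags about 1 in 20 groups.

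CC 1 was the low array in 19 of them. Among acute phase proteins these were Saa4 at 6.66, Hp at 5.94, the elastase inhibitor Serpina1 at 5.84 and the pentraxin Apcs at 7.39. The fibrinogen chains Fga and Fgb were at 6.80 and 5.90, and the inter-alpha-trypsin inhibitor chains Itih1 and Itih3 at 5.08 and 5.59. Among clotting genes, prothrombin (F2) was at 5.15, Plg at 5.78, antithrombin (Serpinc1) at 6.90, Serpind1 at 6.68 and antiplasmin (Serpinf2) at 5.14. Among complement genes, C3 was at 5.32, Cfb at 6.81, Cfi at 5.34 and Mbl1 at 4.94. The carriers Alb and Tf were at 7.14 and 4.10.

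MM 3 was the low array for 6 members, Fga at 7.45, Fgb at 7.56, the heme carrier Hpx at 5.44, Serpina1 at 7.17, the complement C1 inhibitor Serping1 at 2.93 and clotting factor F10 at 5.04. C 11 was low for Serpina1 at 7.56 and Serpind1 at 7.11. M 8 was low for Masp1, a protease of the lectin pathway, at 4.20 and for Mbl2 at 5.83. CC 4 was low for Mbl2 at 5.43. Hamp was high on MM 2 at 4.71 and on CC 2 at 0.41.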

How the results depend on the processing

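The count of called members moved with the fit. In M against C, where 1 was called, it was 2 in Cy5 alone and 2 with the median over the probes of a gene (A2m and Saa4 in both), 3 with the scanner software's log ratio (A2m, Plg and Orm1), 0 on the arrays of row 1 and 2 on those of row 2, and 9 with only the M and C arrays (Mbl2 higher, A2m, Saa4, Hp, Alb, Cfb, Plg, F12 and Itih1 lower). It was 1 to 8 when each M or C array, or CC 1, was left out in turn. Without CC 1 it was 8, and 2 in Cy5 alone without CC 1. The other CC arrays and the MM arrays were not left out for this comparison. In MM against CC, where 2 were called, it was 1 with the deposited series table, 0 on the arrays of row 1, 1 with only the CC and MM arrays and 1 in Cy5 alone without CC 1. It was 1 to 7 when each CC or MM array was left out in turn, with 7 without CC 1 and 1 without CC 4. Without MM 3 it was 4 (A2m, F9, Crp and A1bg), although A1bg was well above background on 1 MM and 0 CC arrays. Fits on 1 array row or on 1 pair of groups have fewer arrays.

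In the ratio for MM against CC, Hp turned to -0.41 and Saa4 to -0.28 without CC 1. Both were then called in the ratio, and neither in Cy5 alone. Over each CC or MM array left out in turn, they ran from -0.41 to 0.37 and from -0.28 to 0.31. A2m kept its direction under all 24 alternatives in each mixture comparison, from -1.08 to -0.63 in M against C and from -1.11 to -0.68 in MM against CC, and its call was lost on row 1 alone in both. F9 lost its call under 11 of 24 alternatives. With the replicate block, F9 stayed at 0.50 without a call (adjusted p = 0.0785), and A2m stayed called at -0.89 (adjusted p = 0.0134). The block used only the CC and MM arrays. It called 2 members, A2m and Cp, and the labels do not say whether the numbers pair the samples. In CC against C, MM against M and the interaction, 0 members were called under every alternative run. Crp in M against C turned to -0.48, not called, with the scanner software's log ratio (adjusted p = 0.0858). Over the named members and alternatives of all 5 comparisons, this was 1 of 108 values that changed sign with no call on either side. A1bg, Hamp and Lcn2 were not well above background on every array.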
